A study of Rattus norvegicus with 25 samples.

Results

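The probe set b6992 of the HuGChip, a microarray of short DNA probes for the bacterial 16S rRNA gene, was described in faecal samples of Wistar rats. Its members were all probes whose name begins with b6992, 25 of the 4441 probes that the array carries in 66 sets, each with 3 spots on every array. The set was chosen by its lower detection under linseed oil in these same samples, so its differences between the oils are given as a description, with no test. The sources used here pair the set with no taxon, and it is called by its number throughout.

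The rats were fed for 12 weeks on a control oil of equal energy (PO, 6 samples), the control oil with wheat aleurone (A+PO, 6 samples), linseed oil (LO, 6 samples) or linseed oil with aleurone (A+LO, 7 samples). All animals were of the Wistar strain, and the labels give no age, sex or cage. DNA from stool was amplified with universal 16S primers over 35 cycles from 10 ng, 1 µg of product was labelled, and 250 ng was hybridised. Each of 12 arrays carried a sample without aleurone in Cy3 and a sample with aleurone in Cy5, and 1 array carried 1 listed sample, A+LO 11. Aleurone and dye therefore cannot be told apart in these data. The 6 control oil arrays came from one slide and the 7 linseed oil arrays from another, and the oil cannot be told apart from the slide. The sample numbers given for 4 of the A+LO channels conflict between file and label; these channels carry no number below and are identified through the LO sample they were hybridised with.

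The 16S rRNA gene is carried by all bacteria, and its stretches of conserved and variable sequence let a short probe bind the genes of many taxa or of few. A probe lights up when amplified 16S copies that match it are present in the labelled pool, so its signal follows the share of matching copies in that pool and not the number of bacteria. Aleurone is the outer cell layer of the wheat grain, rich in fibre and phenolic compounds that gut bacteria ferment. Linseed oil is rich in alpha-linolenic acid, a plant omega-3 fatty acid.

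The 25 probes, all 25 bases long, fall by the middle number of their names into 5 groups of 4, 4, 2, 4 and 11 probes, and no member shared 15 bases with a probe of another set or lay within 2 mismatches of one, on either strand. Members of a group hold the same base at 14 to 24 of the 25 positions, so they are not independent measurements. Within group 5, 8 probes are identical over bases 4 to 25 and differ at bases 2 and 3, where they hold every combination of G or T with A, T, C or G. These 8 are called the family of 8 below, because they carry most of the set's detections. Their sequences, as the files list them and with bases 2 and 3 in capitals, are:

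b6992_5_3: aGAaaagccggtgacgcagttaacg
b6992_5_4: aGTaaagccggtgacgcagttaacg
b6992_5_5: aGCaaagccggtgacgcagttaacg
b6992_5_6: aGGaaagccggtgacgcagttaacg
b6992_5_7: aTAaaagccggtgacgcagttaacg
b6992_5_8: aTTaaagccggtgacgcagttaacg
b6992_5_9: aTCaaagccggtgacgcagttaacg
b6992_5_10: aTGaaagccggtgacgcagttaacg

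Relative to b6992_5_3, and counting from 1 at the first base as listed, b6992_5_4 carries A3T, b6992_5_5 carries A3C, b6992_5_6 carries A3G and b6992_5_7 carries G2T. The other 3 probes of group 5 end in the same 8 bases but differ from b6992_5_3 at 6 to 8 positions. They are shown, with the differing bases in capitals, because b6992_5_2 and b6992_5_11 were the 2 members detected in no sample:

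b6992_5_1: TTTaGGgTcggtgacgAagttaacg
b6992_5_2: CgaaTGTTcggtgacgAagttaacg
b6992_5_11: CgGaaGTTcAgtgTcgAagttaacg

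Groups 1 and 4 are shown by the probes named below, with the bases that vary within the group in capitals. The 4 probes of group 1 differ at 7 positions, and those of group 4 at 11:

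b6992_1_1: gTTgAgcCaatcttaaaaagTTAtc
b6992_1_3: gCTgCgcCaatcttaaaaagTTGtc
b6992_4_1: tTatcggggGGCGCagagatGAGCC
b6992_4_2: tCatcggggAGGACagagatGTCTT

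Members were detected less often in the linseed oil samples. By count the difference lay mostly outside the family of 8, where 17 of the 25 members are. A probe was called detected in a sample where more than 0.5 of its usable spots were flagged well above background by the scanner software. The number of members detected was 20, 12, 14, 14, 13 and 10 in PO 1 to PO 6, a mean of 13.8 ± 3.37 (SD, n = 6) of 25. It was 21, 13, 11, 13, 12 and 10 in A+PO 1 to A+PO 6, a mean of 13.3 ± 3.93 (SD, n = 6). In LO 3, 4, 6, 8, 9 and 11 it was 10, 6, 10, 15, 9 and 14, a mean of 10.7 ± 3.33 (SD, n = 6). The 7 A+LO samples had 5 to 11 members detected, with a median of 8 and a mean of 7.86 ± 1.95 (SD, n = 7). The counts of LO overlapped those of PO, while 6 of the 7 A+LO samples lay below every A+PO sample.

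The other 4416 probes were also detected less often under linseed oil. The PO samples detected 24.9% ± 5.37 (SD, n = 6) of them and the A+PO samples 24.7% ± 6.01 (SD, n = 6). The LO samples detected 21.2% ± 2.99 (SD, n = 6) and the A+LO samples 18.7% ± 2.86 (SD, n = 7). The members' share was 55.3%, 53.3%, 42.7% and 31.4% in the same order. The ratio of the members' share to that of the other probes averaged 2.26, 2.18, 1.99 and 1.68, again in that order, with ranges that overlapped between all 4 groups. Of the 23 members detected in at least 1 sample, 13 were detected in a lower share of the LO than of the PO samples, against 44.1% of all 2143 probes detected at least once. In A+LO against A+PO, 19 of the 23 were lower, against 62.2% of all such probes. Beside these shares, set b6983, with 94 probes, had 57.1% detected in PO and 38.8% in A+LO, and set b6967, with 21 probes, had 81.7% and 76.2%.

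The array that held PO 1 and A+PO 1 stood apart. Its 20 and 21 detected members compare with 10 to 14 in the other 10 control oil samples, and the median raw intensity over all probe spots was 684 in PO 1 and 85.8 to 129.4 in the other PO samples. On this array, 5 members were detected that no other array showed: b6992_1_1, b6992_1_4, b6992_2_4 and b6992_4_3 in both samples, and b6992_1_2 in A+PO 1. The raw intensity of b6992_1_1 was 181721 in PO 1 and 310444 in A+PO 1, and at most 163 in any other sample. Without this array PO had 12.6 and A+PO 11.8 members detected per sample, and the mean difference of LO from PO was -1.93 members in place of -3.17. Without that array and the array of LO 4, whose A+LO channel was the faintest over the probes detected everywhere, LO differed from PO by -1.0 and A+LO from A+PO by -3.63 members.

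By group of probes, detections outside the family of 8 went from 71 of 204 probe-sample pairs (34.8%) under control oil to 31 of 221 (14%) under linseed oil. Without the arrays of PO 1 and LO 4 these shares were 27.1% and 15.5%. The family of 8 went from 92 of 96 pairs (95.8%) to 88 of 104 (84.6%), and 13 of its 16 missed pairs under linseed oil were in A+LO samples. Without the arrays of PO 1 and LO 4 the shares of the family were 95% and 88.6%. From A+PO to A+LO the family then went from 95% to 81.2%, and the probes outside it from 24.7% to 9.8%. Group 1 went from 13 of 48 pairs to 2 of 52, group 2 from 18 of 48 to 6 of 52, and group 3 from 18 of 24 to 7 of 26. Without the array of PO 1 the control oil counts were 6 of 40 pairs in group 1 (15%, in place of 27.1%), 10 of 40 in group 2 (25%, in place of 37.5%) and 14 of 20 in group 3 (70%, in place of 75%). Group 4 was detected in 16 of 48 pairs under control oil and 15 of 52 under linseed oil, shares of 33.3% and 28.8%.

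Among the 4 members with the largest drop in detection share from control oil to linseed oil were b6992_1_3, b6992_2_2 and b6992_3_2, the last level with b6992_5_1. Probe b6992_3_2 was detected in 6 of 12 control oil and 1 of 13 linseed oil samples. Its highest raw intensities, 111010 in PO 1 and 502392 in A+PO 1, both came from the array that stood apart. In the other control oil samples it reached 5124 in PO 5 and 156 in A+PO 4, against at most 241 in LO and 68.6 in A+LO. The negative controls had medians of 63.3 in A+PO 4 and 154.6 in LO 11, where the 241 was read. These raw values come from different dyes and slides, so they are not ranked.

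Probe b6992_1_3 was detected in 8 of 12 control oil and 2 of 13 linseed oil samples. It was bright on 2 control oil arrays, at 192131 in PO 1 and 413996 in A+PO 1, and at 92313 in PO 5 and 41621 in A+PO 5. Elsewhere it stayed at or below 1129, and in A+LO it was not well above background in any of 7 samples. Probe b6992_2_2 was detected in 7 of 12 and 1 of 13 samples, with 73903 in PO 1, 122684 in A+PO 1 and at most 418 in any other sample. Its other detections included 418 in PO 3 and 335 in PO 5, where the negative controls had medians of 98.2 and 82.9. The rest, at 108 to 147, lay closer to the negative controls, whose medians in those channels were 69.1 to 93.7.

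Among the members detected in some samples but not in all, b6992_4_4 and b6992_4_2 were detected in a higher share of the linseed oil samples, and b6992_5_10 and b6992_1_2 had the smallest drops. Probe b6992_4_4 was detected in A+LO 1 only, at a raw intensity of 84.9. Probe b6992_4_2 was detected in 3 of 12 control oil and 4 of 13 linseed oil samples. It was bright on the array of PO 5, at 42600 in PO 5 and 13328 in A+PO 5, and next highest in LO 11, at 1165. Probe b6992_5_10 was detected in all 12 control oil samples and in 12 of 13 linseed oil samples, the exception being the A+LO channel beside LO 4.

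Within the family of 8, the 3 probes b6992_5_3, b6992_5_4 and b6992_5_6 were detected in all 25 samples, as were 9.1% of the other probes of the array. With G at base 2, the probes with A, T, C and G at base 3 were detected in 25, 25, 16 and 25 samples, and with T at base 2 in 23, 19, 23 and 24. The probe that was missed most, b6992_5_5, was detected in 10 of 12 control oil samples, 4 of 6 LO and 2 of 7 A+LO samples. Levels of different probes are not compared, since brightness also depends on the probe.

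Raw intensity of b6992_5_6 ran from 55311 over a median of 179225 to 264549 in PO and from 42192 to 650896 in A+PO. In LO it was 90835 to 610720 in 5 samples and 2154 in LO 3. Among the A+LO samples A+LO 1, on the array of LO 3, had 166, and the other 6 had 9654 to 306120. The same 2 samples were not low for b6992_5_4, at 352101 in LO 3 and 134753 in A+LO 1, its highest raw intensities in LO and in A+LO. Probe b6992_5_9 was highest among the LO samples in LO 4, at 11413, and highest among the A+LO samples in the one on the same array, at 726, while b6992_5_10 was lowest of its LO samples in LO 4, at 288. Which of these variants stood low or high thus differed from array to array within a diet.

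The samples on an array resembled each other across the set. Over the 25 members, the scaled log2 values of the samples on one array correlated at 0.93 to 0.98 (Pearson r, median 0.96, 12 arrays), while the median correlation of a sample with the others of its own group was 0.35 to 0.94. In 12 of the 24 samples with a partner, the most alike of all other samples was the partner. The points of these correlations are probes that share sequence and an array, so they are descriptions. The labels do not say whether the animals on one array were related, and both channels share a slide position. Whether signal passed between the channels was not tested.

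Detection of the members was nearly level with and without aleurone under control oil and lower with aleurone under linseed oil, with dye confounded in both. Of the 23 members detected at least once, 4 were detected in a lower share of A+PO than of PO samples, against 19.1% of all probes detected at least once. In A+LO against LO, 14 of 23 were lower and 1 was higher, against 31.8% of all such probes. The mean differences were -0.50 members in A+PO against PO and -2.81 in A+LO against LO. The pooled SD between single samples was 3.18 members, which is not the error of a difference between samples on the same arrays. Members detected in the Cy3 channel only and in the Cy5 channel only numbered 2 and 1 on the array of LO 3 and 2 and 2 on that of LO 4. They numbered 2 and 0 on the array of LO 6, 4 and 0 on that of LO 8, 1 and 0 on that of LO 9 and 6 and 0 on that of LO 11. With detection set at 1 usable spot, A+LO exceeded LO by 0.19 members, so this direction depended on the detection rule.

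Signal levels were compared on a log2 scale after normexp background correction, with each sample set to the 75th percentile of the 405 probes detected in every sample. Of the 25 members, 17 were detected in at least 6 samples and entered the test with 1136 other probes. With aleurone under control oil, 9 of the 17 were lower at an adjusted p under 0.05 by limma with Benjamini-Hochberg adjustment, against 64% of all 1153 probes tested. The median difference was -1.85 over the members and -1.98 over all probes, and 7 of the 17 members lay below the latter. Of the 9 called, b6992_5_7 differed by -2.46 (SE 0.771, adjusted p = 0.00828, lower on 6 of 6 arrays), b6992_5_3 by -2.43 (SE 0.702, adjusted p = 0.00479, 6 of 6) and b6992_5_8 by -2.39 (SE 0.77, adjusted p = 0.0097, 6 of 6), each in limma with Benjamini-Hochberg adjustment. Relative to the median probe these 3 differences were -0.47, -0.44 and -0.41. With the replicate number as a block, which pairs the samples of each control oil array, all 17 were called, and under scaling by the median of the tested probes the direction turned, with 1 member higher and none lower. The share of all probes called is not set beside these alternatives here, so they do not set the members apart from the array. Leaving out single samples moved the count between 3, without A+PO 6, and 16, without LO 4.

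With aleurone under linseed oil, 0 of the 17 members passed in limma with Benjamini-Hochberg adjustment, against 12% of all probes in either direction, and 3 had an unadjusted p under 0.05. The smallest adjusted p-values in limma were those of b6992_5_4, which differed by -1.40 (SE 0.575, adjusted p = 0.0923, lower on 4 of 6 arrays), and b6992_5_3, which differed by -1.58 (SE 0.695, adjusted p = 0.112, lower on 5 of 6 arrays). The median was -0.11 over the members and -0.49 over all probes. Without the array of LO 4, 6 members were called, all lower. The scaling set both the count and the direction: 10 members were called lower when scaled by the median of all probes and 10 lower by quantiles within each dye, while 8 were called higher when scaled by the median of the tested probes. The share of all probes called is not given for these scalings or without the array of LO 4. These counts therefore do not set the members apart from the array.

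The difference between the aleurone effects under the 2 oils, the interaction, was positive for 3 of the 17 members in limma with Benjamini-Hochberg adjustment, against 25.2% of all probes. The fitted values were 3.66 (SE 1.19, adjusted p = 0.0225) for b6992_3_2, 3.0 (SE 0.962, adjusted p = 0.0204) for b6992_4_2 and 2.96 (SE 1.01, adjusted p = 0.0284) for b6992_2_2. The median interaction was 1.99 over the members and 1.37 over all probes. Probes b6992_3_2 and b6992_2_2 were not well above background in any A+LO sample and were so in only 1 LO sample each, so their linseed oil term is not a measured difference. Probe b6992_4_2 was detected in 1 of 6 PO, 2 of 6 A+PO, 2 of 6 LO and 2 of 7 A+LO samples, so its value too rests mostly on signals not well above background. With the replicate number as a block, over the numbers shared within each oil, only b6992_2_2 of these was called. Under linseed oil this block does not follow the arrays, since A+LO 9 was hybridised with LO 11 and A+LO 11 had no listed partner. No member was called with the deposited background-subtracted or processed intensities, with quantile or loess scaling, or when scaled by the median of the tested probes. With the background-subtracted intensities, 0 of all 1153 probes were called. Under scaling by the median of all probes, 5 members were called with the opposite sign, and leaving out PO 1, PO 5 or the array of LO 3 left none. For the other alternatives no share of all probes is given here, so these counts do not set the members apart from the array.

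As a description of the oils, the median difference over the 17 members was -2.38 for LO against PO and -0.56 for A+LO against A+PO, beside -1.44 and 0.20 over all 1153 probes. Below the median of all probes lay 13 of the 17 members in the first and 16 in the second. The set was chosen by lower detection under linseed oil. Some members also passed the filter mainly through control oil, as did b6992_3_2 with 6 control oil detections and 1 linseed oil detection. These counts are therefore no support for a difference. Of the 3 members detected everywhere, b6992_5_4 differed by -0.23 and 0.06, b6992_5_3 by -0.91 and -0.07, and b6992_5_6 by -1.39 and -1.44. Without the array of PO 1 the medians over the members were -1.22 and 0.59, the latter with the opposite sign. The medians over all probes are not given for that case, so the change of sign is not read as particular to the members.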

How the data were processed

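The deposited scanner text of 13 arrays holds spot intensities on a linear scale. Agilent Feature Extraction (version 10.5.1.1, per the file headers) produced it, and per the labels each channel stands for a single sample. The mean spot intensity, the local background and the deposited flags (well above background, outlier, saturated) were used as deposited; 1 channel with no listed sample was not used. 

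Of the 1875 readings of member spots, 768 carried an outlier flag and were dropped, except where a probe had no other spot in that channel. The flags fell mostly on the family of 8. Out of 3 spots in each of 25 samples, b6992_5_3, b6992_5_4 and b6992_5_10 had 70 flagged each, b6992_5_7 had 62 and b6992_5_8 had 52. Most values of b6992_5_3, b6992_5_4 and b6992_5_10 therefore rest on flagged spots that were kept. No member spot was saturated in the 21 channels whose saturation flag was read. The median SD of log2 intensity between the spots of a member was 0.22 over all members. By probe it ran from 0.12 to 0.73, with 0.40 for b6992_5_3 and 0.49 for b6992_5_7. Background was corrected by normexp with an offset of 50, followed by log2, the mean over spots and scaling to the 75th percentile of the 405 probes detected in all 25 samples. The normexp fit left out spots whose local background exceeded 5 times the channel median. Fitted on all spots, normexp gave a background of -2253.5 to -1219 in 4 linseed oil channels, against -106.7 to 24 in the fit used. This choice was made after seeing the data and after the calls of the fit on all spots were known; that fit called 11, 0 and 3 members in place of 9, 0 and 3.

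The test used R 4.3.3 and limma 3.58.1 on probes detected in at least 6 samples; the model had a mean for each of 4 groups and array as a random block (correlation 0.729) and Benjamini-Hochberg adjustment over all 1153 probes. The fit was tested on simulated data with the spread between samples of the real ones. There it found large changes nearly in full and missed many small ones. The sizes called large and small are not given here, so no rate of recovery is stated for the differences reported above. In control oil, samples of the same number share an array, and their deviations from the group means correlated at 0.87 to 0.94 over the tested probes; this is the pairing the block uses. The p-values measure the spread between these samples, and the number of arrays limits the precision.

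Members named were those detected in every sample or in none, the 4 with the largest fall in detection between the oils (ties by name), the 4 with the smallest fall or a rise among those detected in some samples but not all, and up to 4 with the largest difference each way in each tested comparison, or the 2 with the smallest p where none passed. The sequence and single values of 1 such member are not reported here. The members, groups and lists were chosen with earlier results of these data known. Alternatives covered signal, scaling, filter, block, detection rule and each sample and array left out.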

Additional observations from a re-analysis of the deposited data

Results flagged for a closer look

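The groups of values checked share samples, arrays and probe sequence, so a chance rate of about 5% for independent groups does not apply to them. In 25 of 72 such groups, the highest or lowest sample lay far from the others of its group. The array of PO 1 accounts for 12 of these: A+PO 1 had 21 members detected, 13 of them outside the family of 8, and scaled log2 values were highest in PO 1 for b6992_2_2 (-1.20), b6992_1_2 (-7.65), b6992_5_7 (0.39), b6992_5_2 (-7.79) and b6992_5_11 (-8.97) and in A+PO 1 for b6992_2_2 (-1.94), b6992_3_2 (0.12), b6992_1_2 (-9.38), b6992_5_8 (-2.03) and b6992_5_2 (-10.62). The array of PO 5 had the fewest of the family of 8 detected, 6 in PO 5 and 6 in A+PO 5, and the highest b6992_4_2, at -2.69 and -5.99. Probe b6992_5_10 was lowest in LO 4, at -10.45.

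The unnumbered A+LO channel hybridised with LO 4 was highest in its group for 8 dim probes: b6992_1_3 (-6.25), b6992_2_2 (-6.55), b6992_3_2 (-6.52), b6992_4_4 (-6.53), b6992_4_2 (-6.50), b6992_1_2 (-6.66), b6992_5_2 (-6.49) and b6992_5_11 (-6.58). Of these, only b6992_4_2 was detected there. The 75th percentile used for scaling was 13.22 in this sample and 16.87 to 19.54 in the other 24.

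The fitted interaction of aleurone and oil passed the threshold in limma for b6992_2_2 (2.96), b6992_3_2 (3.66) and b6992_4_2 (3.0), on the log2 scale. The first and second were detected in 1 of 13 linseed oil samples each and the last in 4 of 13, so these are not measured differences in most samples, and none of the 3 was called with background-subtracted or processed signal or with quantile or loess scaling. With background-subtracted signal no probe of the array was called for the interaction.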

How the results depend on the processing

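Of 155 recomputed counts of called members, 91 stayed within 1.5 times the count reported, on the same side; causes of the other changes were not tested unless stated. The medians over the members changed sign in 1 of 52 recomputations with aleurone under control oil (to 1.0, scaled by the median of the tested probes), 7 of 52 under linseed oil (up to 1.62, same scaling), 2 of 51 for the interaction, 0 of 49 for LO against PO and 4 of 49 for A+LO against A+PO. Members called with aleurone under control oil, 9 of 17, became 14 with background-subtracted signal, 0 when scaled by the median of all probes, by quantiles over all samples or by loess, 1 with the direction reversed when scaled by the median of the tested probes, 5 of the 10 left by a filter at 13 samples, 0 without an array block, 15 with array as a fixed block and 15 with only the groups compared. The replicate block gave 17 under control oil, 0 under linseed oil, there with the 2 shared numbers only, and, added after seeing the data, 1 for the interaction. With aleurone under linseed oil, 0 called members became 4 lower with background-subtracted signal, 3 lower with processed signal, 10 lower when scaled by the median of all probes, 8 higher by the median of the tested probes, 10 lower by quantiles within each dye, 1 lower by loess and 5 with no filter, of which 1 was lower and 4 higher. The 3 interaction calls became 0 with background-subtracted or processed signal, under both quantile scalings, under loess, under the median of the tested probes, at 13 samples and without a block, 9 of all 25 members with no filter, 7 with a fixed block, and 5 with the sign reversed under the median of all probes, where the median over members was -1.18. Among the 17 tested members, no filter gave the same 3 calls. Without the arrays of PO 1 and LO 4, an alternative chosen after seeing the data, the counts were 16, 9 and 6. Leaving out each sample or array gave 3 to 16, 0 to 6 and 0 to 7 called members. The lowest count under control oil came without A+PO 6; omitting PO 1, PO 4, PO 5, A+PO 4 or A+PO 5 gave 4 or 5, and omitting A+PO 1 gave 14. The highest counts came without LO 4 or the A+LO channel beside it. The same omissions gave medians over the members of -2.52 to -1.53 with aleurone under control oil, -0.91 to 0.70 under linseed oil, 1.14 to 2.70 for the interaction, -3.18 to -1.22 for LO against PO and -1.19 to 0.59 for A+LO against A+PO. Detected members differed by -4.03 to -1.93 for LO against PO, -6.14 to -3.94 for A+LO against A+PO, -2.03 to 0.73 for A+PO against PO and -3.74 to -1.94 for A+LO against LO. The loess alternative left out A+LO 11. Over all tested probes, scaling moved the median difference with aleurone under control oil from -1.98 to 0.86, and with it the split of 738 lower and 0 higher calls to 0 lower and 295 higher. With background-subtracted signal, 743 of all 1153 probes were called lower under control oil and 388 under linseed oil. For most other settings no share of all probes is given, so the counts above are not read as particular to the set.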
